A study of Mus musculus with 7 samples.

Results

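The genes described here encode the RNA polymerase II transcription machinery: subunits of TFIID other than Taf10, Taf3 and Taf8, the TBP family, TFIIA, TFIIB, TFIIE, TFIIF, TFIIH and RNA polymerase II. They were chosen by name and role and not by any measured value, and they numbered 44 of the 39017 genes counted in each library. All 44 passed the filter on low counts that left 15800 genes for testing. Their RNA was sequenced from fetal livers of E12.5 mouse embryos, in 7 libraries of 3 genotypes that differ in Taf10, itself a TFIID subunit. The comparison asks whether the rest of the machinery is raised or lowered when Taf10 is lost.

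The preinitiation complex is the assembly of general transcription factors and RNA polymerase II on a promoter. TFIID, built from TBP and its associated factors (TAFs), binds core promoter DNA, TFIIA and TFIIB stabilise it there, TFIIF brings in the polymerase, and TFIIE and TFIIH complete the complex and open the DNA. The fetal liver is the main site of red blood cell formation at this stage and also holds hepatocytes, endothelial cells and other stromal cells.

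All livers came from C57BL/6 mice and were dispersed to cell suspensions before RNA extraction. The TAF10KO group (2 libraries) carried lox/lox in the library titles, whereas lox/KO stands in the design text of the series, and it carried EpoR-Cre, a Cre recombinase expressed from the erythropoietin receptor gene and thus active in erythroid cells. The TAF10HET group (3 libraries) also carried Cre, with lox/wt in replicate 1 and wt/ko in replicates 2 and 3. The WT group (2 libraries) was lox/lox without Cre, so the floxed alleles were present in controls and Cre in neither of them. Titles also bear a date-like code. Replicate 1 of each group had the first code (3 libraries) and the other 4 libraries the second, so the alleles of TAF10HET and the date code cannot be told apart. Because the whole liver was sampled, cells in which this Cre is not active contribute to every value, and fewer cells of a type cannot be told apart from less RNA per cell.

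Taf10 was lowest in both TAF10KO libraries, at 37.8 and 43.85 CPM, a count adjusted for sequencing depth with TMM factors, against 78.1, 63.7 and 63.0 in TAF10HET and 72.0 and 96.5 in WT. The groups TAF10KO and WT did not overlap. The fitted log2 difference of -1.04 (SE 0.17) had an adjusted p of 0.0542 by edgeR's quasi-likelihood test with Benjamini-Hochberg adjustment over all genes, with the date code as a term. The same fit in DESeq2 gave an adjusted p of 5.39e-06.

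Gene counts ranged from 18008391 to 43401474 per library. The date code was the main division among libraries. Along the leading principal component, with 63.2% of the variance, the first-code libraries lay at -71.2 to -46.7 and the second-code libraries at 23.2 to 52.95. The biological coefficient of variation fell from 33.9% with genotype alone in the fit to 13.4% with the date code added. Two-sided tests come from the fit with the date code, and every difference is on the log2 scale. By the level of Xist, TAF10HET replicate 1 and TAF10KO replicate 2 were male and the other 5 embryos female.

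The machinery was expressed throughout, at levels per transcript length from 1.95 CPM per kilobase for Taf4b to 108 for Gtf2a2, with a median of 26.25. The median coefficient of variation over the 7 libraries was 10.1%, against 18.0% for all genes tested, which were not matched for level. A filter of 5 CPM in 2 libraries left 11073 genes, all 44 among them. Median sizes of the TAF10KO minus WT difference were then 0.149 for the 44 and 0.153 for all. Between date codes they were 0.119 and 0.224. Among the TAFs, Taf15, an RNA-binding protein associated with part of TFIID, had the highest level per kilobase at 79.6. Taf9, a histone-fold subunit, followed at 46.3. Elsewhere the highest levels per kilobase were those of Gtf2f1 (76.3), the large TFIIF subunit, Gtf2e2 (48.6), the small TFIIE subunit, Gtf2h1 (35.9), a scaffold of core TFIIH, and Cdk7 (33.3), the kinase of TFIIH. Gtf2b, the single-chain factor TFIIB, stood at 33.3. Among the polymerase genes Polr2k (76.2), Polr2f (75.7) and Polr2e (73.4), all shared with polymerases I and III, had the highest levels. Polr2j led the subunits used only by polymerase II, at 67.7. Polr2a, the catalytic subunit that carries the C-terminal repeat domain, stood at 51.15. The lowest levels after Taf4b were Ercc2 (4.197), a TFIIH helicase, and Taf9b (4.48), the paralogue of Taf9.

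**Figure D1:**
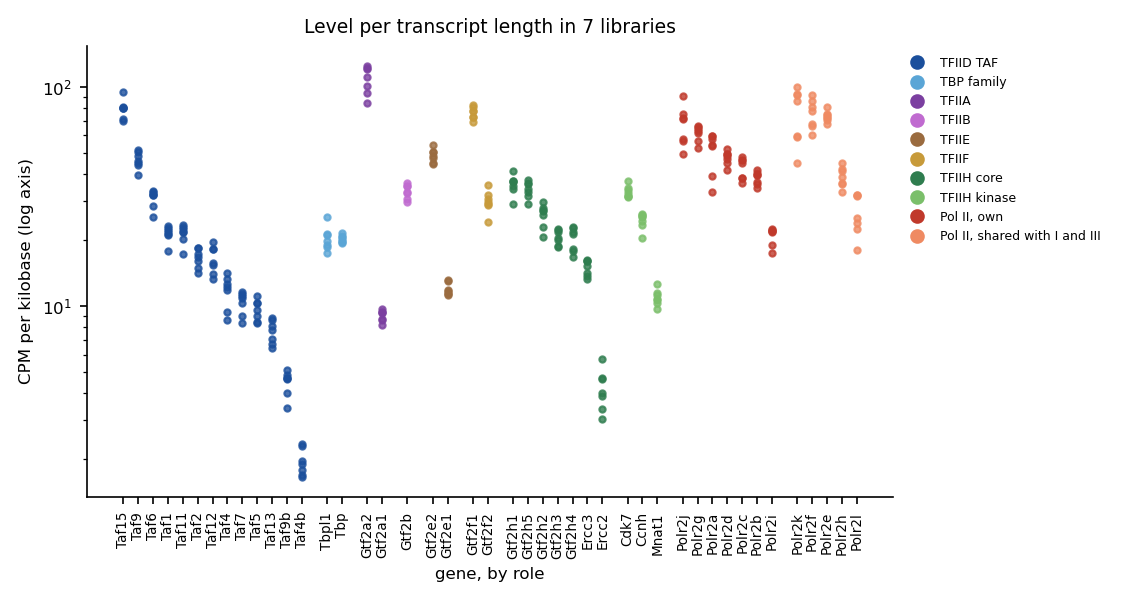
Level of each gene per transcript length (CPM per kilobase, log axis) in each of 7 libraries (points), ordered by role along the horizontal axis. Gtf2a2 has the highest level and Taf4b the lowest, and points of 1 gene lie close together next to the spread between genes.

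Exons of 11 of the 44 genes overlapped those of other genes over more than 5% of their bases, which matters because the strand setting of the counting is not given in the sources used here. The largest shares were 73.8% for Taf9, with Ak6 on the same strand, and 42.7% for Ercc2, mostly antisense. Polr2i shared 26.8%, Taf6 26.5%, Tbp 19.0%, Polr2c 18.1%, Taf11 16.2% and Polr2j 15.9%, with antisense genes, so values of these genes are uncertain by that route. Polr2a, Polr2k, Polr2l and Taf7 had no overlap.

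RefSeq promoter windows (GRCm38.p6) were found for 35 of the 44 genes, 42 promoters in all. In the 250 bases before the start, searched on both strands, the GC box GGGCGG was present in 59.5% of these promoters, against 32.7% of all 32851 promoters of the table. CCGGAA, the core bound by ETS factors, was in 33.3% against 12.0%, and the palindromic motif of NRF1 was in 19.05% against 3.74%. The TATA box TATAAA was in 19.05% against 12.4%, and CCAAT in 28.6% against 33.85%. These are matches of letters and not sites of binding. The following 4 upstream stretches belong to genes whose values are described further on. Polr2j, Polr2l and Taf4 were higher at the second date code, and Polr2a had the highest TAF10KO minus WT value. Each has 100 bases, 5′ to 3′ on the gene's strand, ending at or up to 60 bases before the RefSeq start, with capitals for TATAAA and for GGGCGG or its complement CCGCCC. They lie at chr5:136116531-136116630 (Polr2j, plus strand), chr7:141475154-141475253 (Polr2l, minus), chr2:179976647-179976746 (Taf4, minus) and chr11:69758638-69758737 (Polr2a, minus).
Polr2j: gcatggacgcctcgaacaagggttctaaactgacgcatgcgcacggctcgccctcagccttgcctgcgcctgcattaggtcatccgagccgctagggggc
Polr2l: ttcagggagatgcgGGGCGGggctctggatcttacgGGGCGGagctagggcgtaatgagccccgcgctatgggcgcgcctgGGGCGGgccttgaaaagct
Taf4: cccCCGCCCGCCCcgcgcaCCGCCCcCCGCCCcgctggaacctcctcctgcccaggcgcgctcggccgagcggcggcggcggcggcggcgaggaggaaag
Polr2a: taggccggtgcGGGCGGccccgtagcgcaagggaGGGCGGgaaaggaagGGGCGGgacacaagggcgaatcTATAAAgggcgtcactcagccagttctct
The Polr2a stretch held a TATA box and 3 GC boxes, that of Polr2l 3 GC boxes, that of Taf4 4 of them with some overlap, and that of Polr2j neither motif. The Polr2j stretch ends 60 bases before the RefSeq start, and the 250 bases before that start did hold a GC box.

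Most machinery genes measured in TAF10KO livers lay within 1.5-fold of WT. In TAF10KO against WT 0 of the 44 genes passed the adjusted threshold of 0.05, where 0.608% of all genes tested did. DESeq2 called 1, Taf7, which was lower, where it called 3.73% of all genes. Differences ran from -0.40 (Taf7) to 0.32 (Polr2a), with a median of -0.10 against 0.03 for all genes. The 44 genes were lower in 33 cases and higher in 11, where 45.76% of all genes were lower. At an unadjusted p under 0.05 the counts were 10 lower and 0 higher, where 8.1% of all genes were lower and 9.81% higher by that criterion. The 95% interval lay below a 1.5-fold increase for 41 genes, as it did for 10227 of all 15800 genes tested. It lay within 1.5-fold in either direction for 39, as it did for 8175 of all genes. Among the 44 the 5 exceptions were Polr2a, Taf4b, Ercc2, Taf7 and Taf9b. The median SE was 0.095 for the 44 and 0.146 for all genes, which were not matched for level.

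**Figure D2:**
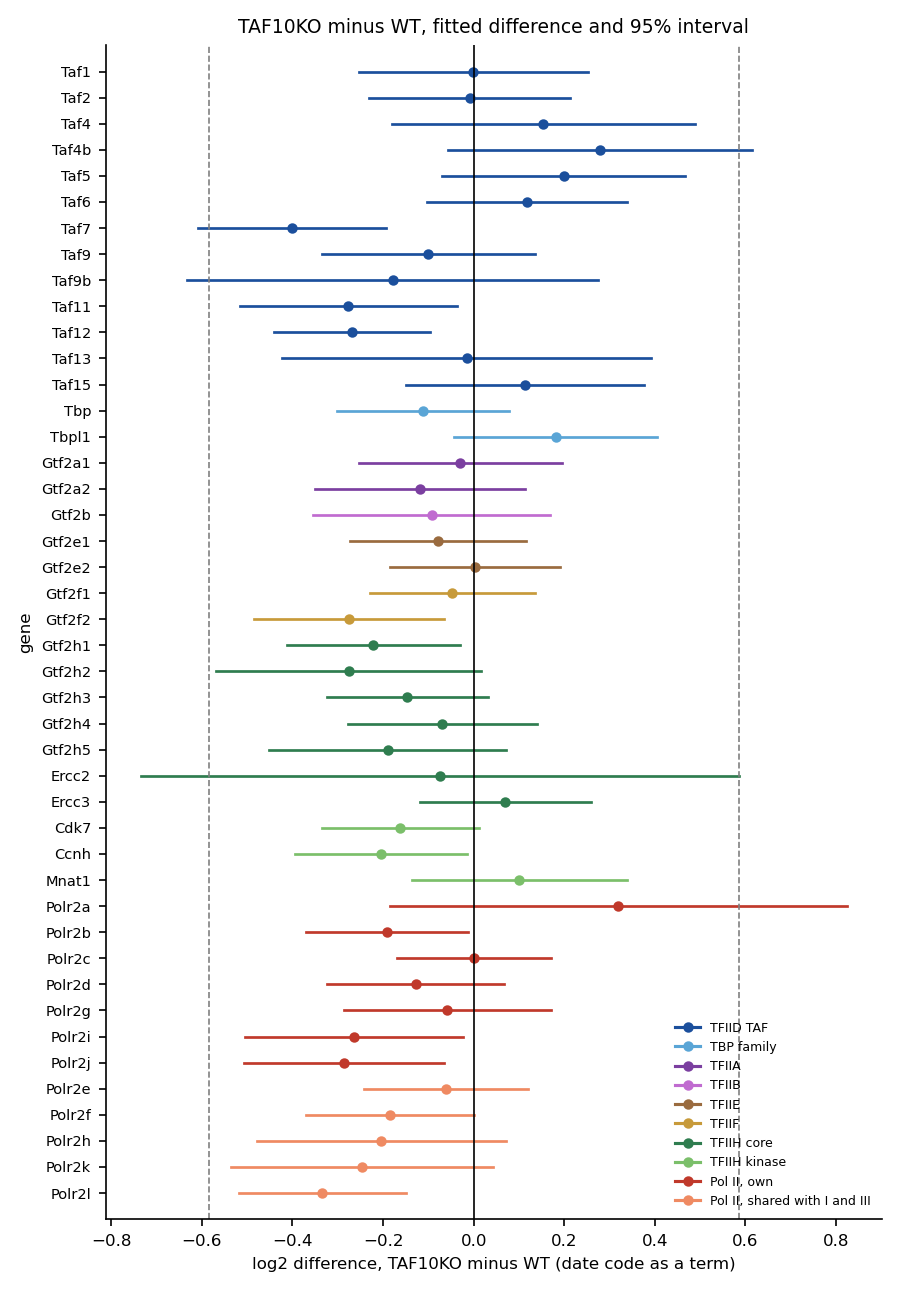
Fitted log2 difference TAF10KO minus WT (points) with its 95% interval (lines) for the 44 genes, coloured by role; dashed lines mark 1.5-fold in each direction. Most points sit slightly left of 0, from -0.40 for Taf7 to 0.32 for Polr2a, and 39 intervals stay between the dashed lines.

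Both TAF10KO libraries lay below all 5 others for 7 genes, Taf7, Taf11, Tbp, Gtf2f2, Ccnh, Polr2d and Polr2i, where 7.18% of all genes did so. For 0 genes of the machinery did both lie above the others, where 7.48% of all genes did. Taken within date codes, the TAF10KO library was below its WT partner for 31 of the 44 genes on each date. Medians were -0.14 on the first and -0.06 on the second, against 0.02 and 0.007 for all genes. TAF10KO was lower on both dates for 25 genes and higher on both for 7 (Taf4b, Taf5, Taf6, Tbpl1, Ercc3, Mnat1 and Polr2c), where 30.4% and 34.3% of all genes were.

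Among the TAFs, 8 of 13 were lower in TAF10KO and 5 higher, and 3 had an unadjusted p under 0.05, all lower. Taf7, a subunit that contacts TAF1 and restrains its activity, measured 29.65 and 27.7 CPM in TAF10KO, 35.9, 34.1 and 36.5 in TAF10HET and 37.6 and 38.1 in WT. The TAF10KO values did not overlap those of either group. Its difference from WT was -0.40 (SE 0.09, 95% interval -0.61 to -0.19, adjusted p = 0.0936). From TAF10HET it differed by -0.31 (adjusted p = 0.119). Taf12, a histone-fold subunit shared with SAGA, measured 50.4 and 59.2 CPM in TAF10KO, 53.2, 68.9 and 68.85 in TAF10HET and 58.45 and 74.1 in WT. It was the lowest of its date code in TAF10KO each time, at -0.27 from WT (adjusted p = 0.141). Taf11, another histone-fold subunit, had a difference of -0.28 (adjusted p = 0.230), and 16.2% of its exon bases overlap other genes.

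Taf4b, a paralogue of the scaffold subunit Taf4 known from gonads, measured 9.80 and 12.1 CPM in TAF10KO, 8.54, 10.1 and 11.8 in TAF10HET and 8.745 and 9.19 in WT. Its difference from WT was 0.28 (SE 0.14, adjusted p = 0.356). Taf5, a WD40-repeat subunit, was at 0.20 from WT (adjusted p = 0.408) and 0.26 from TAF10HET (adjusted p = 0.271). Taf4 itself was at 0.15 from WT (adjusted p = 0.609). The ratio of Taf4b to Taf4 in CPM per kilobase ran from 0.142 to 0.193 over the libraries. That of Taf9b to Taf9 ran from 0.0857 to 0.112. In TAF10KO the Taf4b to Taf4 ratio was 0.161 and 0.193, against 0.182 and 0.142 in WT, so the groups overlapped. Of the 2 X-linked members, Taf1, the largest TAF, measured 106 and 127 CPM in the male embryos and 126 to 137 in the female ones, with a TAF10KO minus WT value of -0.00073 (adjusted p = 0.998). The other, Taf9b, measured 13.45 and 12.75 CPM in the male embryos and 8.96 to 12.4 in the female ones, and its TAF10KO minus WT value was -0.18 (adjusted p = 0.665).

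Tbp, the TATA-binding protein, measured 39.9 and 40.6 CPM in TAF10KO, 40.7, 42.95 and 41.9 in TAF10HET and 44.5 and 42.45 in WT. These values spanned a narrow range, with TAF10KO at its lower end and a difference of -0.11 (adjusted p = 0.504). Its paralogue Tbpl1, which does not bind the TATA box, measured 40.2 and 51.6 CPM in TAF10KO, 35.6, 38.6 and 43.5 in TAF10HET and 37.8 and 42.7 in WT. It was the highest of its date code in TAF10KO on both dates, at 0.18 from WT (adjusted p = 0.368) and 0.26 from TAF10HET (adjusted p = 0.196). The ratio of Tbpl1 to Tbp in CPM per kilobase was highest in TAF10KO replicate 2, at 1.29, and 0.864 to 1.055 in the others.

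No gene of the general factors passed the adjusted threshold in TAF10KO against WT. Gtf2f2, Gtf2h1 and Ccnh were lower at an unadjusted p under 0.05. TFIIA, TFIIB and TFIIE genes lay between -0.12 and 0.003. Of TFIIF, Gtf2f2, the small subunit, measured 35.6 and 42.6 CPM in TAF10KO and 42.6 and 52.1 in WT (-0.27, adjusted p = 0.187), whereas Gtf2f1 was at -0.05 (adjusted p = 0.791). In core TFIIH 6 of 7 genes were lower and Ercc3, the translocase that opens promoter DNA, was at 0.07. Gtf2h2, a ring-domain subunit of that core, was at -0.28 (adjusted p = 0.302) and Gtf2h1 at -0.22 (adjusted p = 0.227). In the TFIIH kinase module Ccnh, the cyclin partner of CDK7, was at -0.20 (adjusted p = 0.253), Cdk7 at -0.16 (adjusted p = 0.309) and the assembly factor Mnat1 at 0.10 (adjusted p = 0.637).

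In RNA polymerase II 10 of 12 genes were lower in TAF10KO than in WT, with a median of -0.19, and all 5 subunits shared with polymerases I and III were among them (-0.33 to -0.06). Polr2l, a small shared subunit, measured 29.6 and 41.6 CPM in TAF10KO, 39.6, 52.4 and 53.1 in TAF10HET and 36.95 and 53.0 in WT. On each date the TAF10KO library was the lowest, while the groups overlapped across dates. The difference was -0.33 from WT (SE 0.08, adjusted p = 0.109) and -0.37 from TAF10HET (adjusted p = 0.0620). Polr2j, which pairs with Polr2c in the assembly platform, measured 32.0 and 46.3 CPM in TAF10KO, 36.5, 46.35 and 48.7 in TAF10HET and 37.3 and 58.8 in WT, at -0.29 from WT (adjusted p = 0.193). Polr2i, a zinc-binding subunit with a role in transcript fidelity, was at -0.26 from WT (adjusted p = 0.248) and -0.28 from TAF10HET (adjusted p = 0.196).

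Polr2a, the catalytic subunit, went the other way in 1 library. It measured 403.5 and 361 CPM in TAF10KO, 224, 402 and 391 in TAF10HET and 265 and 367 in WT. TAF10KO replicate 1 exceeded its date partners, at 0.61 from WT, whereas replicate 2 lay at -0.02 from WT. The fitted difference of 0.32 had a 95% interval of -0.18 to 0.82 (adjusted p = 0.470), and the sign depended on the library. It was 0.67 without TAF10KO replicate 2 and -0.12 without replicate 1. With TAF10HET the difference was 0.30 (adjusted p = 0.492), 0.71 without replicate 2 and -0.08 without replicate 1. Each of these fits leaves 1 TAF10KO library and takes the spread from the other groups, so their p-values are not read as a result on genotype.

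**Figure D3:**
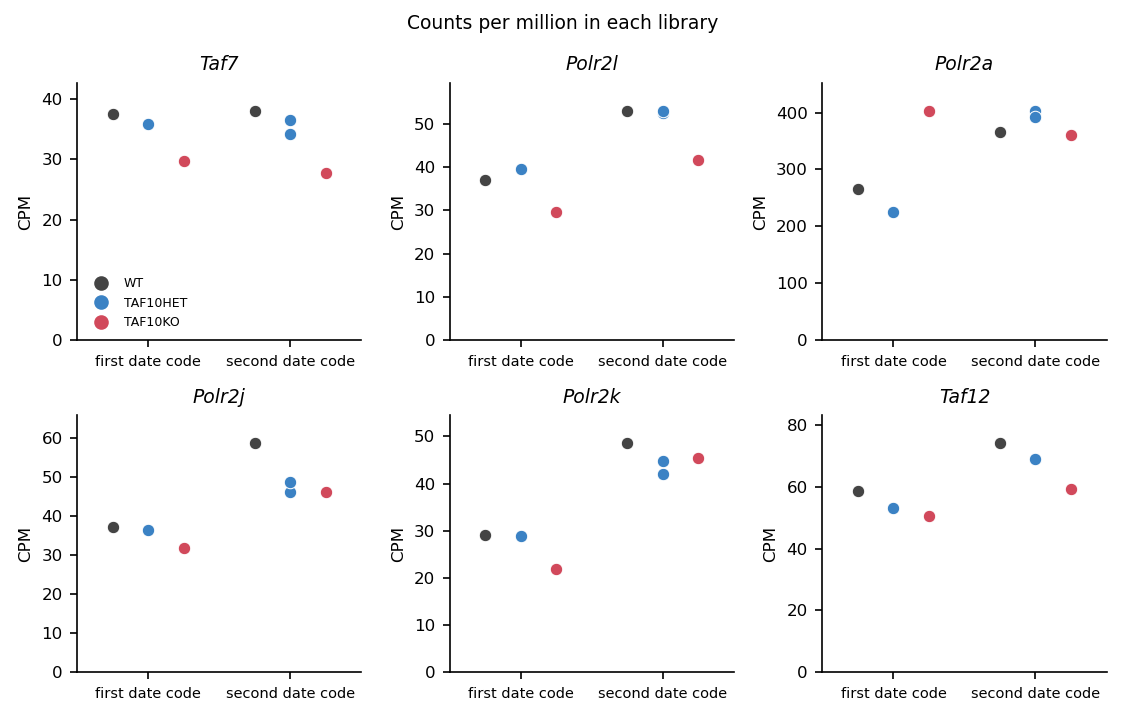
CPM of 6 genes in each library (points, coloured by genotype; vertical axes start at 0), with the first date code on the left and the second on the right of each panel. TAF10KO is lowest within both dates for Taf7, Polr2l and Taf12, while Polr2a is high in TAF10KO only on the first date, at 403.5 against 265 in WT.

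Several marker lists moved with the genotype, and their part in these values was not tested. In TAF10KO against WT 3 of 9 erythroid markers fell and all 9 were lower (median -0.46). Summed erythroid markers were 8243 and 9940 CPM in TAF10KO against 11230 and 15800 in WT. Of the endothelial markers 2 of 7 rose (median 0.40), with sums of 212 to 465 CPM in TAF10KO and 167 to 347 in WT. Of the 7, 6 were higher and 1 was lower, at -0.59 with an unadjusted p under 0.05. Hepatocyte (8), macrophage (7), neutrophil (6), megakaryocyte (5) and mesenchymal (5) markers had 0 calls by edgeR. Their medians were -0.24, -0.43, 0.68, 0.24 and 0.56, with 4, 5, 5, 2 and 0 markers at an unadjusted p under 0.05. Of those 4 hepatocyte markers 1 was higher and 3 were lower. No marker had a count of 0 in any library. Adding embryo sex as a further term, which leaves fewer residual degrees of freedom, called 14 of the 44 genes in TAF10KO against WT, 3 higher (Polr2a, Taf4, Taf6) and 11 lower, where 9.44% of all genes were higher and 7.81% lower. With genotype alone in the fit, 0 genes of 15800 were called. Leaving out TAF10HET replicate 1 called Taf7 and Polr2l of the 44, both lower, where 887 of 15701 genes were called in either direction. Where a TAF10KO library is left out, the remaining one is assumed to vary like the other groups. Calls of such fits are not read as a result on genotype.

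In TAF10HET against WT most machinery genes lay within 1.5-fold as well. None of the 44 genes was called by edgeR or DESeq2, where 0.00633% of all genes tested were by edgeR and 0.057% by DESeq2. At an unadjusted p under 0.05 there were 0 higher and 0 lower, where 2.04% and 1.32% of all genes were. The median was -0.07 against 0.01 for all genes, with 33 genes lower and 11 higher, where 47.35% of all genes were lower. Of 44 intervals 43 lay within 1.5-fold, as did 9863 of 15800 over all genes, not matched for level. The highest differences were those of Taf4b (0.12), Polr2d (0.08), a polymerase stalk subunit, and Taf4 (0.05). The lowest were Gtf2h2 (-0.19), Polr2j (-0.19) and Mnat1 (-0.13).

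TAF10KO and TAF10HET, which both carry Cre, gave a similar range, from -0.37 (Polr2l) to 0.30 (Polr2a). Here 26 genes were lower and 18 higher, where 49.48% of all genes were lower. The median of the 44 was -0.05 against 0.00 for all genes. With each library left out, that median ran from -0.13 without TAF10KO replicate 2 to -0.011 without TAF10HET replicate 1. With no filter on low counts it was -0.0092. In edgeR 0 of the 44 passed, where 1.61% of all genes did, and DESeq2 called 1, Polr2l, which was lower, and 4.37% of all genes. At an unadjusted p under 0.05 there were 4 higher, Taf5, Taf15, Tbpl1 and Mnat1, and 6 lower, Taf7, Taf11, Ccnh, Polr2d, Polr2i and Polr2l, where 9.32% and 7.8% of all genes were. Markers moved here as well, and their part was not tested. Of 9 erythroid markers 3 fell and all were lower, with sums of 8243 and 9940 CPM in TAF10KO against 10230 to 17890 in TAF10HET. Of 7 endothelial markers 3 rose (212 to 465 against 170 to 318 CPM), while 6 were higher and 1 was lower (-0.64). Of 6 neutrophil markers 2 rose (336 to 650 against 239 to 412 CPM). Of 7 macrophage markers 1 fell and all were lower (139 to 248 against 191 to 297 CPM). Hepatocyte, megakaryocyte and mesenchymal markers had 0 calls by edgeR, with 2, 2 and 0 at an unadjusted p under 0.05. The 3 genotype comparisons share libraries and are not independent of each other.

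More of these genes passed the test by date code than by genotype. At the second code 13 of the 44 rose and 0 fell, where 18.7% of all genes rose and 22.7% fell. At an unadjusted p under 0.05 the counts were 19 higher and 1 lower, where 24.7% and 26.5% of all genes were. The median was 0.17 against 0.02 for all genes, with 35 genes higher and 9 lower, where 48.16% of all genes were lower. The median size of the difference, 0.17, was below the 0.30 of all genes. All 4 second-code libraries lay above all 3 first-code ones for 15 genes, where 18.8% of all genes did, and below them for 1, Gtf2e1, the large TFIIE subunit, where 23.6% did.

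**Figure D4:**
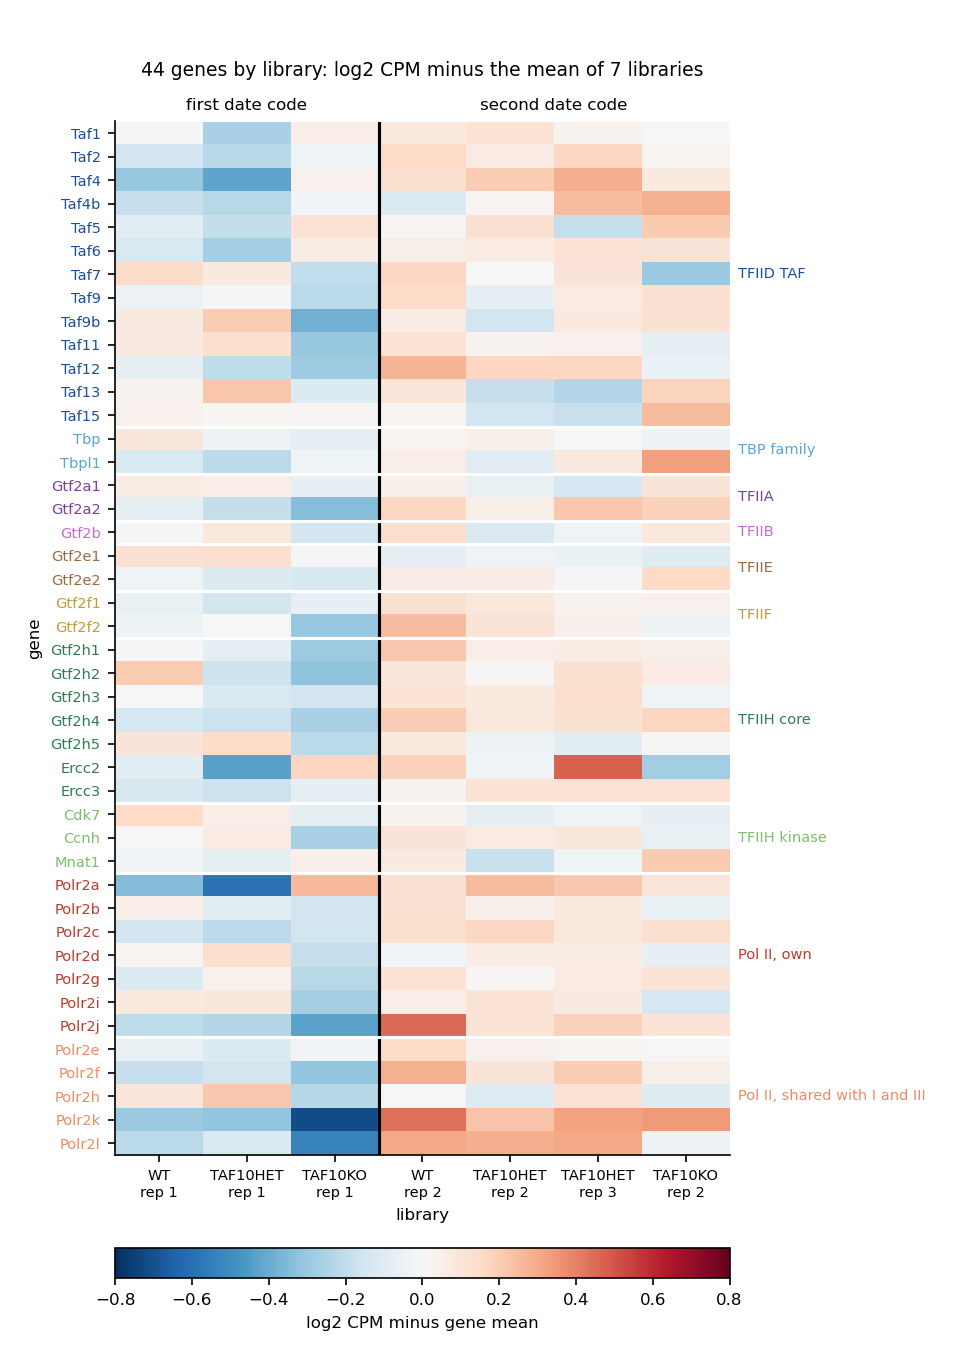
Log2 CPM of each gene minus its mean over 7 libraries, with genes in rows by role and libraries in columns by date code (red above the mean, blue below). Polr2k, Polr2j and Taf4 are blue on the first and red on the second date in nearly all libraries, and Taf7 is blue in both TAF10KO libraries.

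The risers were spread over the roles. They were 5 of 12 polymerase subunits, 3 of 7 core TFIIH genes, 3 of 13 TAFs, Gtf2a2 of TFIIA and Tbpl1. In the main edgeR fit no gene of TFIIB, TFIIE, TFIIF or the TFIIH kinase passed. Gtf2e1 of TFIIE was called lower with the filter of 5 CPM in 2 libraries and with the sex term, where 2654 of 11073 and 4378 of 15800 genes were. Gtf2f2 was called higher without TAF10HET replicate 1, where 2188 of 15701 genes were. With the sex term Gtf2e2, Gtf2f1 and Gtf2f2 were called higher, where 4549 of 15800 genes were. Gtf2f1 of TFIIF was at 0.17 (adjusted p = 0.0621) and passed with DESeq2 (adjusted p = 0.0405). Polr2k, a zinc-binding subunit shared by the 3 polymerases, measured 29.15, 28.9 and 21.9 CPM in WT, TAF10HET and TAF10KO at the first code. At the second code it measured 48.6 in WT, 42.0 and 44.7 in TAF10HET and 45.4 in TAF10KO. The dates did not overlap, and the rise was 0.78 (SE 0.10, adjusted p = 0.00113).

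Polr2j rose by 0.51 (adjusted p = 0.00199), from 32.0 to 37.3 CPM at the first code to 46.3 to 58.8 at the second. Polr2l rose by 0.47 (adjusted p = 0.00133), from 29.6 to 39.6 CPM to 41.6 to 53.1. Taf4, the TFIID scaffold subunit, rose by 0.40 (adjusted p = 0.0272), from 38.1 to 52.2 CPM to 53.8 to 62.3. In each of these genes the ranges of the dates did not overlap. The other 9 rises ran from 0.37 for Polr2f, a subunit shared by the polymerases, down to 0.21 for Ercc3. Without WT replicate 1 only Gtf2a2, Polr2j, Polr2k and Polr2l of the 44 remained called, where 3207 of 16362 genes were called in either direction. These 4 were called under every setting run. Without WT replicate 2 there were 7 calls, where 3206 of 16573 genes were called. Leaving out TAF10HET replicate 3 gave 8, where 4586 of 15827 genes were called.

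The difference between dates varied with transcript length, without a steady order among the machinery genes. The 7 machinery genes shorter than 1000 nucleotides had a median of 0.36, against 0.14 in 1768 genes tested of that length, the 14 genes of 1000 to 2000 nucleotides 0.17 against 0.06, and the 16 genes of 2000 to 4000 nucleotides 0.11 against 0.00. The 7 of at least 4000 nucleotides had 0.24, against -0.06 in 4295 genes. In the first-date pair of TAF10KO and WT the short machinery genes had a median of -0.26, against -0.13 in all short genes, and the long ones 0.12 against 0.10. In the second-date pair these medians were -0.098 against -0.014 for the short genes and -0.0495 against 0.0446 for the long ones. The part of length in these differences was not tested further.

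**Figure D5:**
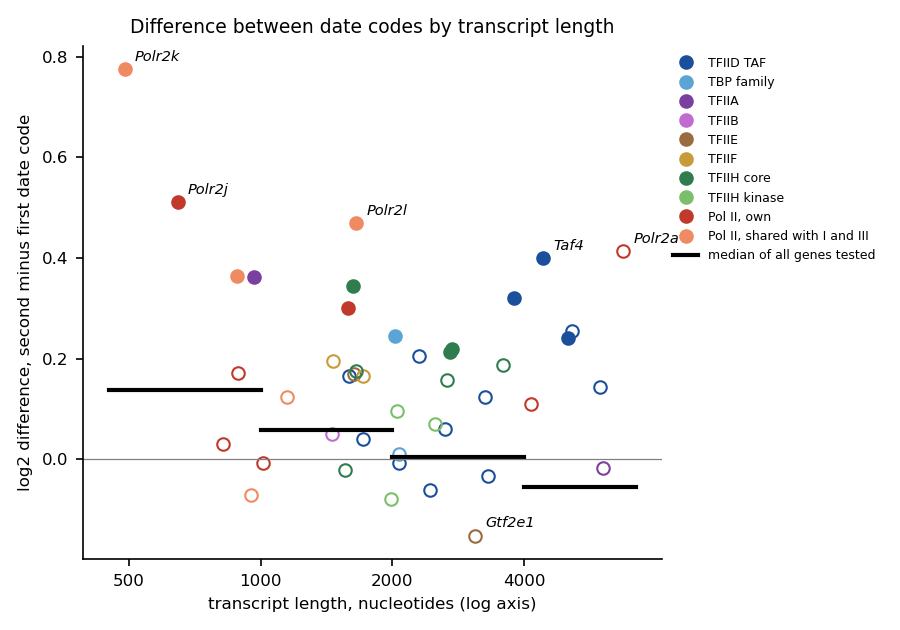
Log2 difference between date codes against transcript length (log axis) for the 44 genes, filled where the adjusted p was under 0.05 and coloured by role; black bars are the medians of all genes tested in 4 length groups. Short genes such as Polr2k (0.78) and Polr2j (0.51) lie highest, while Taf4 (0.40) and Polr2a (0.41) are long genes that also lie above the bars.

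Markers of other cells moved with the date code too, and their part in the rises was not tested. All 5 mesenchymal markers fell (median -2.485), with sums of 947 to 1734 CPM at the first code and 125.5 to 227 at the second. All 7 endothelial markers fell (sums 318 to 465 against 167 to 212), as did 6 of 7 macrophage markers and 6 of 8 hepatocyte markers. Among erythroid markers 8 of 9 rose (median 0.56), with sums of 8243 to 11230 CPM at the first code and 9940 to 17890 at the second. For neutrophils 3 of 6 and for megakaryocytes 2 of 5 markers rose.

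Other lists of the transcription apparatus had positive medians at the second code. Of 32 Mediator genes tested, which bridge activators and polymerase, 10 rose and 0 fell (median 0.17), among them Med19 (0.46) and Med24 (0.40). Of 26 genes of elongation and pausing, 8 rose and 1 fell (median 0.15). Ell2, an elongation factor, rose by 0.60, and Aff4, a scaffold of the super elongation complex, fell by 0.39. Of 19 genes for subunits of polymerases I and III alone, 6 rose and 0 fell (median 0.13), with Polr3c at 0.30. Of 10 genes for other TBP complexes and TBP regulators, 5 rose and 0 fell (median 0.27), with the repressor subunit Drap1 at 0.39 and the TFIIIB subunit Brf1 at 0.28. In the genotype comparisons 0 genes of these 4 lists were called by edgeR. In TAF10KO against WT their medians were -0.04, 0.00, -0.04 and -0.04, and the counts at an unadjusted p under 0.05 were 1 higher and 4 lower, 2 and 2, 0 and 3, and 0 and 1. Of all genes tested 9.81% were higher and 8.1% lower by that criterion. The 3 germ-cell paralogues of the list did not pass the filter on low counts.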

How the data were processed

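Total RNA from the liver suspensions went into TruSeq version 2 libraries, per the labels' protocols. The deposited values are whole-number counts of reads per Ensembl gene made by the authors, without normalisation. The submitters' processing notes name TopHat2 2.0.8, DESeq2 and mm10. No counting program, annotation or strand setting is given in the sources used here. The summary classes were left out, among them reads in no gene (6.81% to 10.1%), ambiguous (3.98% to 5.94%) and multiply aligned (14.1% to 22.25%). GENCODE M21 matched 37693 of 39017 identifiers, and the 1324 others held 0.198% of counts. Transcript length is the median of principal transcripts.

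Genes passing filterByExpr were fitted with edgeR 4.0.16 under R 4.3.3 (TMM, robust quasi-likelihood F test, genotype plus date code, all 7 libraries, 3 residual degrees of freedom), adjusted by Benjamini-Hochberg over 15800 genes. The code was used as a block because deviations from group means correlated at 0.40 to 0.74 across genes in 8 pairs of libraries with the same code and at -0.74 to -0.40 in 8 pairs with different codes; in groups of 2 they mirror each other by construction. The labels do not say what the code marks. P-values measure the spread between these embryos only, and no 2 libraries held identical values. The genes, lists, marker sets and the block were chosen with earlier results of these data known. Named were the genes called, the extremes of each comparison, the highest level per role, paralogue pairs, X-linked genes and Polr2a; others were named after their values were seen. Embryos under 10 CPM of Xist were taken as male. The scripts were tested on simulated data. Alternatives included DESeq2 1.42.0, other size factors and filters (none, or 5 CPM in 2 libraries), totals without 11 globin genes, only the groups compared, non-robust dispersions, embryo sex and each library left out.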

Additional observations from a re-analysis of the deposited data

Results flagged for a closer look

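Among the 4 second-code libraries 3 genes had 1 library apart from the others by Dixon's criterion at the 95% level, which chance alone meets in about 1 in 20 groups. Polr2l was lowest in TAF10KO replicate 2, at 41.6 CPM against 52.4 to 53.1 in the other 3. Gtf2h1 was highest in WT replicate 2, at 113 CPM against 101 to 102. Ercc3 was lowest in WT replicate 2, at 41.25 CPM against 43.5 to 43.7.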

How the results depend on the processing

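No named gene called in the main fit changed sign. In the genotype comparisons that fit called 0 of the 44, so only calls between date codes could have changed sign. Of 1638 values of named genes and medians, 93 had the other sign, and 0 of these passed the threshold in either fit. Without TAF10KO replicate 1 the TAF10KO minus WT values of Taf4 and Polr2a were -0.11 and -0.12, and that of Taf9b was 0.13. With an embryo sex term Taf4 and Polr2a were called higher in that comparison. Leaving out the replicate block (date code) reduced the genes called from 96, 1 and 254 to 0 in TAF10KO against WT, TAF10HET against WT and TAF10KO against TAF10HET. In the same order DESeq2 called 589, 9 and 690, no filter on low counts 1399, 289 and 1498, an embryo sex term 2725, 32 and 2743, and fits of only the groups compared 553, 7 and 26. Non-robust dispersions called 53 and 0 in the first comparisons. Of the 44 genes, TAF10KO against WT had 1 call with DESeq2 (Taf7), 1 without a filter (Polr2a) and 14 with the sex term. TAF10KO against TAF10HET had 1 (Polr2l), 3 (Polr2a, Taf15 and Polr2l) and 11. The date comparison had 25 of the 44 with the sex term, where 8927 of 15800 genes tested were called. The sex term, carried by 2 male embryos, left 2 residual degrees of freedom. With each library left out, genes called ran from 0 (without WT replicate 1 or 2) to 1282 (without TAF10KO replicate 1) in TAF10KO against WT. They ran from 0 to 13 in TAF10HET against WT, from 16 (without TAF10HET replicate 3) to 1203 (without TAF10KO replicate 1) in TAF10KO against TAF10HET and from 3206 (without WT replicate 2) to 7303 between dates. Machinery genes called ran from 0 to 2, 0 throughout, 0 to 2 and 4 to 14, and the TAF10KO minus WT median from -0.21 (without TAF10KO replicate 2) to -0.074 (without replicate 1). Taf7 passed in TAF10KO against WT with DESeq2, with the sex term and without TAF10KO replicate 1 or TAF10HET replicate 1. Among values of named genes, 1504 kept their direction or, if not called, their lack of a call, 50 came to pass the threshold and 21 no longer passed it.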
